A study of Rattus norvegicus with 6 samples.

Results

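The genes described here were the members of the Notch and Hedgehog signaling pathways found in bulk RNA-seq of rat endometrial epithelial organoids (rEEOs) and rat bone marrow mesenchymal stem cells (rBMSCs). They were taken by gene symbol from a list of 59 names covering the ligands, receptors, processing enzymes, nuclear factors and target factors of both pathways. Of the 59 names, 40 were found in the table analysed, and the 34 with at least 10 reads summed over the 6 libraries were kept, of 13728 genes in all. Of these members, 29 belonged to the Notch pathway and 5 to the Hedgehog pathway. The rEEOs (3 libraries) were organoids grown in Matrigel from uterine gland fragments of female SD rats 5 weeks old and used at passages 3 to 5. Their expansion medium held the Wnt activators Wnt3a and R-spondin-1, the growth factors EGF and FGF10, the BMP antagonist noggin and inhibitors of the TGF-beta receptor and of ROCK. The rBMSCs (3 libraries) were purchased cells labeled with red fluorescent protein, grown on dishes in serum-containing medium. Nothing in the sources used here says that the 3 libraries of a group came from separate animals or cultures, so the p-values measure only the spread between these libraries. Cell type, medium and culture form differed together between the groups and cannot be told apart.

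Notch signaling passes between touching cells. A ligand of the Jagged or Delta family on a cell binds a Notch receptor on its neighbor, the receptor is cut by ADAM proteases and then by the gamma-secretase complex, and the freed intracellular part enters the nucleus, where it joins Rbpj and a Mastermind protein to switch on genes such as the Hes and Hey repressors. In Hedgehog signaling a secreted ligand binds Patched, which frees Smoothened to act on the Gli factors. In the uterus the epithelium is known as the source of Indian hedgehog (Ihh) and the stroma beneath it as the responding tissue, while Notch genes are known from both the glands and the stroma.

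The 6 libraries held 10457958 to 15421501 estimated counts, and levels are given in TPM, a unit that scales each gene for transcript length and each library to the same total. The epithelial markers summed to 4841 to 5422 TPM in rEEOs and 2.43 to 2.85 TPM in rBMSCs, where 6 of the 8 were at 0. The 9 mesenchymal markers summed to 41220 to 43516 TPM in rBMSCs and 172 to 298 TPM in rEEOs. Pdgfrb and Thy1 were at 0 in rEEOs, where Vim made up nearly all of the sum, at 171, 297 and 227 TPM. By immunofluorescence, the paper did not see VIM protein in rEEOs. In rEEOs the 4 smooth muscle markers held summed to 0.72 to 1.08 TPM, the 5 endothelial markers to 0.1 to 0.4 TPM, the 6 macrophage markers to 1.01 to 1.64 TPM and the 4 ciliated cell markers to 11.1 to 12.7 TPM. In rBMSCs the same lists summed to 5928 to 6719 TPM for smooth muscle, most of it Acta2 at 5584, 6332 and 6270 TPM. The other lists summed there to 0.41 to 0.54 TPM for endothelium, 0.28 to 0.58 TPM for macrophages and 0.17 to 0.55 TPM for ciliated cells. In bulk RNA, fewer cells of a type and less RNA per cell cannot be told apart. The rEEOs libraries differed more among themselves than the rBMSCs libraries did, with a median SD over genes of 0.34 against 0.0877 on the log2(CPM + 1) scale, where CPM is counts scaled to library depth. The spread of rEEOs was 0.164 without replicate 1, which carried relatively more reads from long transcripts than replicates 2 and 3. Values without it are given beside the reported members whose call it changed and some of the others it moved.

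Differences were tested with edgeR (quasi-likelihood F test) on the 10607 genes that reached 10 counts in 3 or more libraries, and a gene was called changed at an adjusted p below 0.05. Of the 34 members, 29 were tested. The test called 14 of them lower in rEEOs and 8 higher, with 7 not called, where 30.2% of all genes tested were lower, 33.3% higher and 63.4% called either way. Past a log2 fold change of 2 in size, 10 members were lower and 4 higher, against 13.3% and 16.3% of all genes. The median log2 fold change of rEEOs over rBMSCs was -0.61 over the 29 members, also with Jag2 and Dlk2 at their bounds, and 0.08 over all genes. Large differences were thus seen in both directions. Of the tested members, 4 had fewer than 10 counts in every library of 1 group. These passed the filter on counts through the other group alone, Jag2 through rEEOs and Dlk2, Hey1 and Hey2 through rBMSCs. Nrarp, with 8, 8 and 10 counts in rBMSCs, and Maml3, with 45, 7 and 7 counts in rEEOs, also needed their higher group to pass. The TPM ranges of the groups did not overlap for 20 of the 29, against 69.6% of all genes. Fitted to log2(TPM + 1) by limma, which scales the libraries differently, the Notch members split into 5 higher and 12 lower, in place of 8 and 12. The median over all genes was -0.22 in that fit and 0.46 with scaling by library size alone, so the direction of small differences depends on the scaling.

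**Figure D1:**
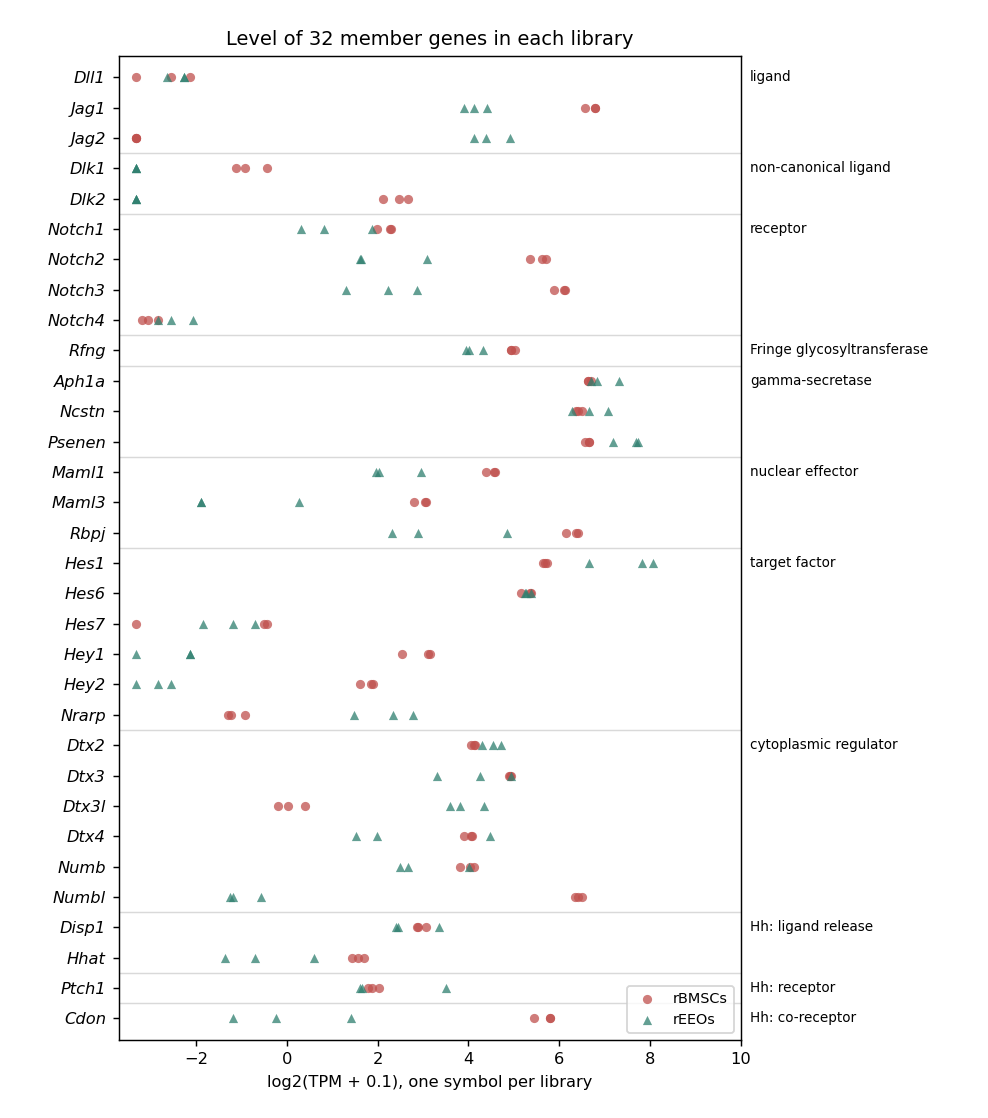
Level of 32 members in each library, on a log2(TPM + 0.1) axis, with 1 circle per rBMSCs library and 1 triangle per rEEOs library and the members grouped by role (Hh, Hedgehog). Jag2 lay at 0 in every rBMSCs library and at 17.3 to 30.3 TPM in rEEOs, while the Notch2, Notch3, Hey1, Hey2, Numbl and Cdon triangles sat far to the left of the circles.

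Among the ligands, Jag1 and Jag2 went in opposite directions. Jag1, the Jagged ligand known from both epithelium and mesenchyme, stood at 110.3, 94.2 and 109.9 TPM in rBMSCs replicates 1, 2 and 3 and at 17.4, 21.3 and 14.9 TPM in rEEOs replicates 1, 2 and 3. Every rEEOs library was far below every rBMSCs library. Jag1 was 4.85-fold lower in rEEOs (log2 fold change -2.28 with an SE of 0.24, edgeR adjusted p = 0.000328). Jag2, the other Jagged ligand, had no count in any of the 3 rBMSCs libraries and stood at 20.7, 30.3 and 17.3 TPM in rEEOs. With a floor of 3 counts per library in place of 0, Jag2 was at least 438-fold higher in rEEOs (edgeR adjusted p = 0.000237). Jag2 made up 54.4%, 58.7% and 53.7% of the summed Jag1 and Jag2 TPM in the rEEOs libraries and 0% in the rBMSCs libraries. So the Jagged transcript of rBMSCs was all counted as Jag1, and rEEOs held both ligands at similar levels.

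Dll1, the Delta ligand among the members, was close to its limit of detection. It had 4, 0 and 2 counts in rBMSCs and 4, 2 and 4 counts in rEEOs, and did not pass the filter on counts. Dll3, a divergent Delta ligand that is known to inhibit Notch rather than activate it, had 2 counts in all and fell below the minimum for a member. Dlk1 and Dlk2 are non-canonical relatives of Delta that lack the domain ligands use to bind Notch, and Dlk1 is known as a marker of immature adipocyte precursors. Dlk2 stood at 5.48, 4.27 and 6.27 TPM in rBMSCs and had no count in any rEEOs library. It was at least 18.8-fold lower in rEEOs (edgeR adjusted p = 0.000346). Dlk1 was counted 8, 5 and 5 times in the rBMSCs libraries and never in rEEOs, which put it at least 1.71-fold lower. It did not pass the filter on counts, and with a filter of 1 count in any library it was called lower by edgeR (adjusted p = 0.0108), as it was by DESeq2 (adjusted p = 0.0128). No Delta-type or Delta-like transcript of the 4 held thus passed 1 TPM in an rEEOs library.

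The 3 receptors tested were each called lower in rEEOs, Notch2 and Notch3 by large amounts, beside 30.2% lower among all genes tested. Notch3, the receptor known from mural and stromal cells, stood at 69.3, 59.4 and 68.3 TPM in rBMSCs and at 7.18, 4.58 and 2.38 TPM in rEEOs, and Notch2 stood at 49.2, 41.1 and 52.3 TPM in rBMSCs and at 8.39, 2.95 and 3.00 TPM in rEEOs. For both receptors the lowest rBMSCs library was several times above the highest rEEOs library, which was replicate 1. Notch3 was 12.2-fold lower (log2 fold change -3.61 with an SE of 0.33, edgeR adjusted p = 0.000166). Notch2 was 8.96-fold lower (log2 fold change -3.16 with an SE of 0.33, edgeR adjusted p = 0.0003). Without rEEOs replicate 1 the log2 fold changes were -3.80 for Notch3 and -3.57 for Notch2. Notch1, the receptor known from many epithelia, was low in both cell types, at 4.71, 3.86 and 4.8 TPM in rBMSCs and 3.58, 1.68 and 1.14 TPM in rEEOs. Its groups did not overlap, but rEEOs replicate 1 came close to the lowest rBMSCs library. Notch1 was called lower by a smaller amount, at a log2 fold change -0.90 with an SE of 0.31, edgeR adjusted p = 0.0404. That call was lost when the trend of each library with transcript length was taken out, at -0.25 (adjusted p = 0.284). It was also lost on leaving out any library other than rEEOs replicate 1, with adjusted p from 0.0638 to 0.112. Without rEEOs replicate 1 Notch1 was at -1.22 (edgeR adjusted p = 0.00161). Notch4, known from endothelium, had 1, 3 and 1 counts in rBMSCs and 6, 3 and 11 counts in rEEOs, at under 1 TPM in every library. Its depth-scaled ratio of rEEOs to rBMSCs was 3.99 with a 95% counting interval of 1.45 to 13.6, which covers counting error only. Notch4 did not pass the filter on counts. It was not called by edgeR with a filter of 1 count in any library (adjusted p = 0.0802) or by DESeq2 (adjusted p = 0.139). The receptors summed to 123, 104 and 125 TPM in rBMSCs, where Notch3 and Notch2 made up most of the sum, and to 19.2, 9.25 and 6.66 TPM in rEEOs. The smooth muscle markers, given above, were likewise high in rBMSCs and near 0 in rEEOs, and their part in the receptor differences was not tested.

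Rfng, a Fringe glycosyltransferase that adds a sugar to Notch and shifts its preference among ligands, stood at 30.6, 30.4 and 32.6 TPM in rBMSCs and 19.98, 16.1 and 15.4 TPM in rEEOs. All rEEOs libraries lay below all rBMSCs libraries. The difference was 1.48-fold (log2 fold change -0.57 with an SE of 0.17, edgeR adjusted p = 0.026). The call was lost with scaling by library size alone, at -0.19 on the log2 scale with an adjusted p of 0.302, and without rBMSCs replicate 1, 2 or 3 or rEEOs replicate 3, with adjusted p from 0.065 to 0.0936. Mfng, another Fringe enzyme, had 7 counts in all and was not kept as a member.

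The gamma-secretase complex makes the cut that frees the Notch intracellular domain and also cuts many other membrane proteins. It had 3 members called higher in rEEOs, beside 33.3% higher among all genes tested. Psenen, a small subunit needed for the complex to mature, stood at 101, 101 and 95.4 TPM in rBMSCs and at 145, 207 and 212 TPM in rEEOs. The groups were well apart, and rEEOs replicate 1 was the lowest of its group. Psenen was 2.46-fold higher (log2 fold change 1.299 with an SE of 0.31, edgeR adjusted p = 0.0101), and 0.60 (adjusted p = 0.00874) with the length trend removed, its effective transcript length being 0.101 of that of the median gene. Aph1a, a scaffold subunit, stood at 104, 99.5 and 98.6 TPM in rBMSCs and 159, 103 and 113 TPM in rEEOs, and Ncstn, the subunit that recognizes substrates, at 84.9, 83.1 and 90.1 TPM in rBMSCs and 134, 77.7 and 101 TPM in rEEOs. On the TPM scale the groups overlapped for both genes, with rEEOs replicate 1 highest. The count test, which scales libraries by a trimmed mean of log ratios, called Aph1a 1.44-fold higher (log2 fold change 0.52 with an SE of 0.11, edgeR adjusted p = 0.00706) and Ncstn 1.41-fold higher (log2 fold change 0.50 with an SE of 0.13, edgeR adjusted p = 0.0172). On log2(TPM + 1) with limma neither was called, with adjusted p of 0.204 for Aph1a and 0.339 for Ncstn. The Ncstn call was also lost without rBMSCs replicate 1, 2 or 3, with adjusted p from 0.0651 to 0.0844, and the Aph1a call without rBMSCs replicate 3, with an adjusted p of 0.0501.

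The nuclear effectors were lower in rEEOs, with 3 of 3 called, beside 30.2% lower among all genes tested. Of these, Maml3 had 45, 7 and 7 counts in rEEOs and would not have passed the filter on counts without rBMSCs. Rbpj, the DNA-binding protein that carries the Notch intracellular domain to its targets and represses them in its absence, stood at 85.1, 70.5 and 82.9 TPM in rBMSCs and 28.9, 4.9 and 7.3 TPM in rEEOs. The groups did not overlap, and rEEOs replicate 1 was several times above replicates 2 and 3. Rbpj was 4.88-fold lower (log2 fold change -2.29 with an SE of 0.34, edgeR adjusted p = 0.00148), and at -2.70 without rEEOs replicate 1. Maml1 and Maml3 are Mastermind co-activators that bind the Rbpj and Notch complex. Maml1 stood at 23.4, 21 and 23.7 TPM in rBMSCs and 7.65, 4.00 and 3.8 TPM in rEEOs, and Maml3 at 8.2, 6.91 and 8.29 TPM in rBMSCs and 1.11, 0.17 and 0.17 TPM in rEEOs. Every rEEOs library was below every rBMSCs library for both. Maml1 was 3.91-fold lower (log2 fold change -1.97 with an SE of 0.18, edgeR adjusted p = 0.000197), and its counts were not whole numbers, so some of its reads were shared with other transcripts in the estimate. Maml3 was 14.7-fold lower (log2 fold change -3.88 with an SE of 0.61, edgeR adjusted p = 0.00179), and -5.03 (adjusted p = 5.27e-06) on the log2 scale without rEEOs replicate 1. The effectors summed to 117, 98.4 and 115 TPM in rBMSCs and to 37.7, 9.07 and 11.3 TPM in rEEOs.

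**Figure D2:**
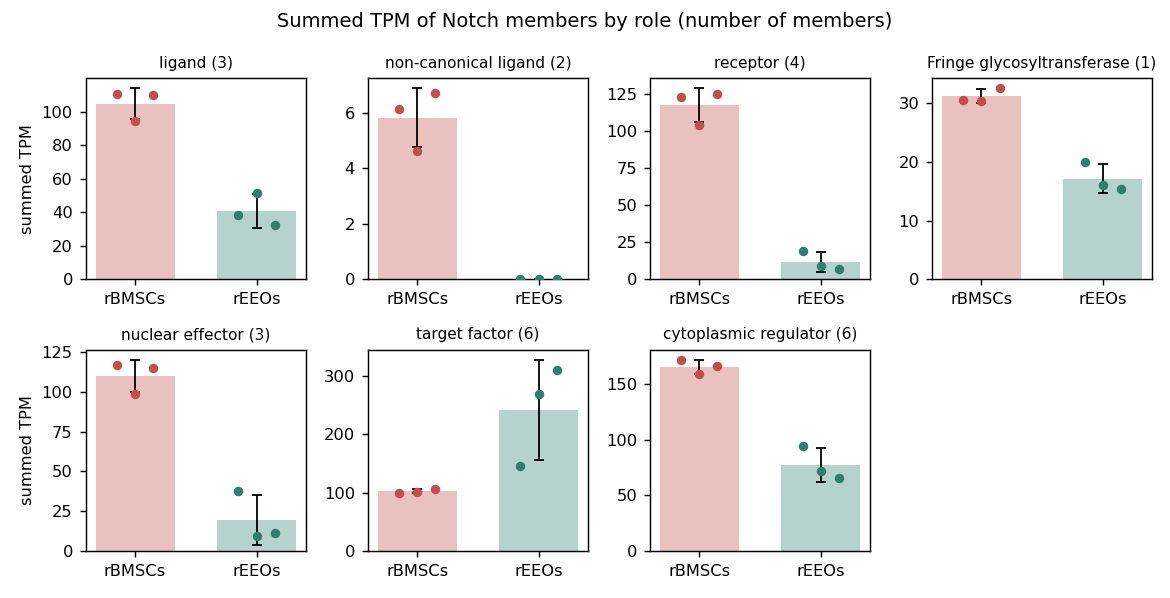
Summed TPM of the Notch members of 7 roles in rBMSCs and rEEOs, with 1 point per library, bars at the mean and error bars of 1 SD over the 3 libraries, each panel on its own axis from 0. Receptor and nuclear effector sums were lower in every rEEOs library (receptors 6.66 to 19.2 TPM against 104 to 125 TPM). The target sum, which includes Hes6, was higher in every rEEOs library. Hes1 made up most of that sum in rEEOs, at 100.3, 226 and 266 TPM, while Hey1 and Hey2 were lower there.

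These sums are weighted by the most abundant genes and were not tested, since an exact permutation test of 3 against 3 libraries cannot give a two-sided p below 0.1. The order of the levels differed between the cell types. In rBMSCs the highest member was Jag1, at 105 ± 9.21 TPM (SD, n = 3), followed by Aph1a at 101 ± 2.92 and Psenen at 99.1 ± 3.25, and these neighbors did not differ beyond their spread. In rEEOs the highest were Hes1 at 198 ± 86.5 TPM and Psenen at 188 ± 37.2, likewise within their spread of each other, then Aph1a at 125 ± 29.9 and Ncstn at 104 ± 28.5. Jag1 stood at 17.8 ± 3.25 and Rbpj at 13.7 ± 13.2 TPM in rEEOs, where the spread of Rbpj was almost as large as its mean.

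The genes grouped here as targets, the Hes and Hey factors and Nrarp, did not move together. Of 5 tested, 2 were called higher and 2 lower, beside 33.3% higher and 30.2% lower among all genes tested. The 1 not called was Hes6, which is known as an inhibitor of Hes1. All 4 that were called passed a log2 fold change of 2. The 2 lower, Hey1 and Hey2, passed the filter on counts through rBMSCs only. Nrarp, among the higher, had 8, 8 and 10 counts in rBMSCs and would not have passed without rEEOs. Hes1, the basic helix-loop-helix repressor that is the best known direct Notch target and also answers to other signals, stood at 51.2, 49.8 and 52.9 TPM in rBMSCs and at 100.3, 226 and 266 TPM in rEEOs. All rEEOs libraries were above all rBMSCs libraries, with replicate 1 the lowest of the rEEOs. Hes1 was 4.91-fold higher (log2 fold change 2.30 with an SE of 0.47, edgeR adjusted p = 0.00549), and at 2.71 without rEEOs replicate 1. Nrarp, a direct target whose product binds the Notch complex and dampens it, stood at 0.33, 0.31 and 0.43 TPM in rBMSCs and 6.77, 4.94 and 2.68 TPM in rEEOs. It was below 1 TPM in every rBMSCs library and above 2 TPM in every rEEOs library. Nrarp was 15.4-fold higher (log2 fold change 3.95 with an SE of 0.38, edgeR adjusted p = 0.000214).

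Hey1 and Hey2, repressors related to Hes1 and also induced by Notch, ran the other way. Hey1 had 57, 40 and 54 counts in rBMSCs, or 8.74, 5.68 and 8.55 TPM, and 1, 1 and 0 counts in rEEOs, and Hey2 had 83, 85 and 65 counts in rBMSCs, or 3.64, 3.51 and 2.98 TPM, and 2, 1 and 0 counts in rEEOs. Both were all but undetected in every rEEOs library. Scaled for depth, the ratio of rBMSCs to rEEOs was 75.7 with a 95% counting interval of 20.6 to 631 for Hey1 (edgeR adjusted p = 0.000195). It was 77.8 with a 95% counting interval of 26.3 to 380.2 for Hey2 (edgeR adjusted p = 0.000163), and both intervals cover counting error only. On the log2 scale Hey2 was at -6.13, and at -6.78 (adjusted p = 9.36e-05) without rEEOs replicate 1. Hes6, a family member that is known to inhibit Hes1, stood at 35.8, 40.9 and 41.3 TPM in rBMSCs and 38.7, 37.6 and 41.5 TPM in rEEOs. The groups overlapped. Its log2 fold change was 0.28 with a 95% interval of -0.18 to 0.75 (edgeR adjusted p = 0.238), and the direction turned with the scaling, at -0.03 with the length trend removed and 0.65 with library size alone. Without rEEOs replicate 1 Hes6 was called higher, at 0.46 (adjusted p = 0.0118). Hes7, the oscillating repressor of somite formation, had 0, 6 and 6 counts in rBMSCs and 2, 5 and 4 in rEEOs and did not pass the filter, and Hes2 had 2 counts in all.

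Promoter sequence around the starts of these genes was read from RefSeq (build GRCr8, not the build of the counts), in windows of 250 bases before to 50 bases after the start. Windows were found for 29 of the 34 members, 33 windows in all, and not for Disp1, Dtx3 and Hey1, among others. The core letters of the Rbpj site, TGGGAA, were searched on both strands and were present in 14 of the 33 windows, against 25.7% of all 33469 windows in the table. At least 2 matches were present in 6 of the 33, against 3.85% of all windows. Windows of the same gene can overlap and share a match, as the pair for Rbpj did. The windows of Jag1 and Jag2 had no match. The 250 bases before the start of Hes1 (chr11:84213046-84213295, minus strand) and Hey2 (chr1:28640850-28641099, plus strand) are shown because these targets moved in opposite directions while each had 2 matches. The capitals mark TGGGAA or its reverse complement TTCCCA.
Hes1: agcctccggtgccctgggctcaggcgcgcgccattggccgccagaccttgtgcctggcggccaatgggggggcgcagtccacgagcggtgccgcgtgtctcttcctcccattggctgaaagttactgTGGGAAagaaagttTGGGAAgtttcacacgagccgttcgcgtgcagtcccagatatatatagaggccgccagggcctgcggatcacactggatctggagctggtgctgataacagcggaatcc
Hey2: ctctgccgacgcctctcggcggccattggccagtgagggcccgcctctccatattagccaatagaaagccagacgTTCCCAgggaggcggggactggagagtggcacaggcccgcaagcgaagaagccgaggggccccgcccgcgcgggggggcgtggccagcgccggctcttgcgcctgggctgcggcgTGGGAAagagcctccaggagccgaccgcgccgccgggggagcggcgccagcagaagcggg
The matches began at -123 and -109 in Hes1, both on the strand of the gene, and at -175 and -60 in Hey2, the former on the opposite strand. The core of the Gli site, GGGTGGTC, was searched likewise and was found in 2 of the 33 windows, those of Nrarp and Ptch1, against 0.878% of all windows. These are shown with the Gli core in capitals, as GACCACCC where it lies on the opposite strand, for Nrarp (chr3:28390495-28390744, plus strand) and Ptch1 (chr17:1555321-1555570, plus strand).
Nrarp: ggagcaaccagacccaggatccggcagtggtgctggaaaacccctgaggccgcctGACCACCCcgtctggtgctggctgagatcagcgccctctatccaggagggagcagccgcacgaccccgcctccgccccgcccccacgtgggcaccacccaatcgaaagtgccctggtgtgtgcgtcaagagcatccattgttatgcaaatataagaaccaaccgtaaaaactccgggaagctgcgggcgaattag
Ptch1: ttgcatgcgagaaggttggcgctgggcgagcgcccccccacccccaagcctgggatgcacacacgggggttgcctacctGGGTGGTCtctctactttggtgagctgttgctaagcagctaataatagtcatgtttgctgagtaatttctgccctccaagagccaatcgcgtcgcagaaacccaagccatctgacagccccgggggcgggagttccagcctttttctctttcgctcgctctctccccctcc
The match began at -195 in Nrarp and at -171 in Ptch1, and Nrarp had no TGGGAA in its window. A match of letters describes the sequence and does not show that a factor binds there.

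Of the 6 cytoplasmic regulators, Numbl and Dtx3l differed most. Numb and Numbl are adaptor proteins that restrain Notch by steering the receptor into endocytosis. Numbl stood at 90.6, 81.1 and 85.2 TPM in rBMSCs and at 0.34, 0.58 and 0.32 TPM in rEEOs. It was among the 5 highest members in rBMSCs and below 1 TPM in every rEEOs library. Numbl was 157-fold lower (log2 fold change -7.30 with an SE of 0.33, edgeR adjusted p = 1.38e-05). Its relative Numb stood at 17.3, 14.1 and 16.3 TPM in rBMSCs and 15.9, 6.28 and 5.5 TPM in rEEOs. The groups overlapped through rEEOs replicate 1. Numb was not called, at a log2 fold change of -0.61 with a 95% interval of -1.35 to 0.12 (edgeR adjusted p = 0.119), and it was called lower without rEEOs replicate 1, at -0.98 (adjusted p = 0.00117). So Numb transcript was present in both cell types, while Numbl transcript was near 0 in rEEOs.

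The Deltex family are ubiquitin ligases, some of which act on Notch. Dtx3l, which partners with a PARP enzyme in interferon and DNA damage responses, stood at 0.92, 0.77 and 1.23 TPM in rBMSCs and 20.1, 12 and 14 TPM in rEEOs. The groups were far apart. Dtx3l was 19.3-fold higher (log2 fold change 4.27 with an SE of 0.23, edgeR adjusted p = 2.22e-05). Dtx2 stood at 16.4, 17.5 and 17.4 TPM in rBMSCs and 26.3, 19.7 and 23.1 TPM in rEEOs. Its groups were close but did not overlap. Dtx2 was 1.58-fold higher (log2 fold change 0.66 with an SE of 0.13, edgeR adjusted p = 0.00503), and was not called by limma on log2(TPM + 1), at 0.40. Dtx4 stood at 16.7, 14.9 and 16.6 TPM in rBMSCs and 22.2, 2.77 and 3.89 TPM in rEEOs. Here rEEOs replicate 1 was above the rBMSCs range and replicates 2 and 3 far below it. Dtx4 was not called, at -0.61 with a 95% interval of -1.97 to 0.75 (edgeR adjusted p = 0.373), and was -1.59 (adjusted p = 0.000117) without that library. Dtx3 stood at 29.6, 30.5 and 30.1 TPM in rBMSCs and 9.85, 30.4 and 19 TPM in rEEOs, with replicate 1 here the lowest of all libraries. Dtx3 was not called, at -0.12 with a 95% interval of -1.38 to 1.13 (edgeR adjusted p = 0.849), and its direction turned with library size alone.

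**Figure D3:**
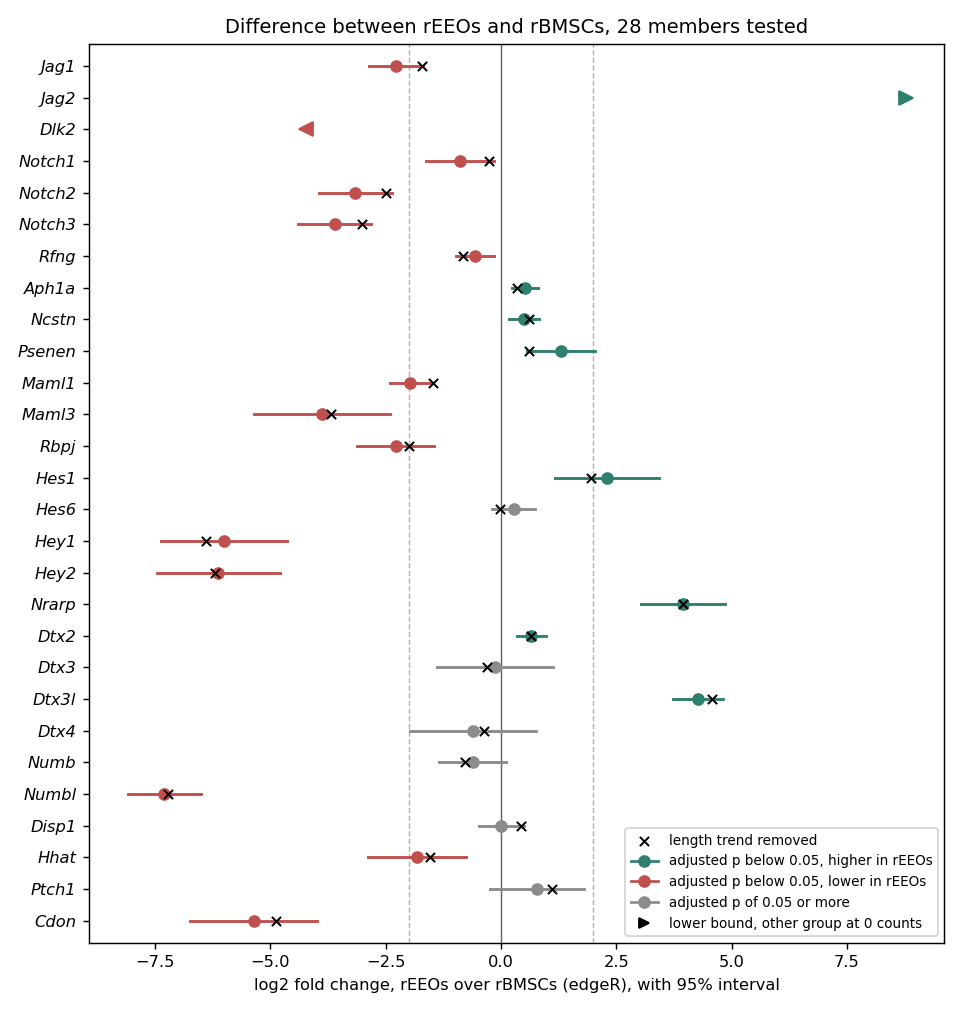
Log2 fold change of rEEOs over rBMSCs for 28 tested members, as points with 95% intervals from edgeR (green, called higher; red, called lower; gray, not called), triangles at the lower bound for Jag2 and Dlk2, whose other group had 0 counts, crosses for the fit with the length trend removed and dashed lines at -2 and 2. The crosses lay on the same side of 0 as the points for all members plotted with a cross except Hes6, and the cross for Notch1 lay near 0.

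Of the 5 Hedgehog members, 4 were tested, and edgeR called 2 lower and 0 higher. Of all genes tested, 30.2% were called lower and 33.3% higher. At an unadjusted p below 0.05 in edgeR 0 were higher, and DESeq2 and limma also called 0 higher. Cdon, a surface co-receptor that helps cells bind Hedgehog ligand, stood at 55.5, 43.4 and 55.4 TPM in rBMSCs and at 2.56, 0.34 and 0.75 TPM in rEEOs. The groups were far apart, and rEEOs replicate 1 was again the highest of its group. Cdon was 41-fold lower (log2 fold change -5.36 with an SE of 0.57, edgeR adjusted p = 0.000336), and -6.07 (adjusted p = 1.14e-05) on the log2 scale without rEEOs replicate 1. Hhat, the acyltransferase that attaches palmitate to Hedgehog ligands, stood at 3.15, 2.6 and 2.88 TPM in rBMSCs and 1.41, 0.29 and 0.52 TPM in rEEOs. All rEEOs libraries were below all rBMSCs libraries. Hhat was 3.53-fold lower (log2 fold change -1.82 with an SE of 0.44, edgeR adjusted p = 0.0116), and at -2.39 without rEEOs replicate 1. Disp1, the transporter that releases the lipid-bearing ligand, stood at 7.25, 7.29 and 8.24 TPM in rBMSCs and 10.1, 5.33 and 5.22 TPM in rEEOs. The groups overlapped. Disp1 was not called, at 0.01 with a 95% interval of -0.47 to 0.49 (edgeR adjusted p = 0.969). Its sign turned under several alternatives, among them limma on TPM and leaving out rEEOs replicate 1, and stayed above 0 with library size alone.

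Ptch1, the Hedgehog receptor that is also switched on by the pathway, stood at 3.58, 3.38 and 4.01 TPM in rBMSCs and 11.3, 2.96 and 3.06 TPM in rEEOs. Only rEEOs replicate 1 was above the rBMSCs range, and replicates 2 and 3 were just below it. Ptch1 was not called, at 0.78 with a 95% interval of -0.24 to 1.80 (edgeR adjusted p = 0.147), and was at 0.15 (adjusted p = 0.336) without rEEOs replicate 1. With the length trend removed, Ptch1 and Disp1 were both called higher, at 1.101 (adjusted p = 0.0242) and 0.43 (adjusted p = 0.0221). The ligands held and Gli1 were near 0 in both cell types and were not members. Ihh had 0, 0 and 0 counts in rBMSCs and 1, 0 and 4 counts in rEEOs, Gli1, the factor most used as a readout of pathway activity, had 1, 4 and 1 counts in rBMSCs and 0, 2 and 0 in rEEOs, and Dhh had 6 counts in all. Ihh is the ligand known from uterine epithelium, and at this depth it was below 1 TPM in every rEEOs library.

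Genes around the cores of the pathways were read from a longer list. Of 36 other Notch pathway genes listed, 25 were held and all were tested, with 13 called lower in rEEOs, 5 higher and 7 not called, beside 30.2% lower and 33.3% higher among all genes tested. Their median log2 fold change was -0.64, and 4 of them had fewer than 10 counts in every library of 1 group. Only 2 were called higher on log2(TPM + 1), beside 14 lower, and with library size alone 6 were higher and 9 lower. Without rBMSCs replicate 2 the number higher was 2, and without rBMSCs replicate 3 it was 3. Bend6, a Rbpj-binding co-repressor of Notch targets, stood at 20.2, 20.3 and 19.1 TPM in rBMSCs and had 1, 0 and 0 counts in rEEOs, a ratio of rBMSCs to rEEOs of 1185 with a 95% counting interval of 212 to 46830 (edgeR adjusted p = 1.55e-05). Postn, a matrix protein of mesenchyme that has been tied to Notch1 activity, stood at 1429, 1329 and 1442 TPM in rBMSCs and 0.31, 2.02 and 7.82 TPM in rEEOs (log2 fold change -8.33, and -9.89 without rEEOs replicate 3, edgeR adjusted p = 0.00169). Dner, a Delta and Notch-like receptor of neurons, had 1, 0 and 0 counts in rEEOs and a ratio in the same direction of 396 with a 95% counting interval of 70.7 to 15680. Dlg4 and Neurl1, a synaptic scaffold and a ligase of Notch ligands, were lower too, at log2 fold changes of -4.72 (-5.53 without rEEOs replicate 2) and -3.15.

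The called members of that list that were higher were led by Rbpjl, a relative of Rbpj best known from the pancreas that binds the same DNA but not the Notch intracellular domain. Rbpjl stood at 0, 0.11 and 0.04 TPM in rBMSCs and 10.6, 20.8 and 8.87 TPM in rEEOs. Its groups were far apart, so the Rbpj and Rbpjl transcripts ran in opposite directions. Rbpjl was higher at a log2 fold change 7.97 with an SE of 0.83, edgeR adjusted p = 0.000309, and at 9.47 without rBMSCs replicate 2 and 7.38 without rEEOs replicate 2. Furin, the convertase that cuts the Notch precursor, was 2.36-fold higher (log2 fold change 1.24 with an SE of 0.21, edgeR adjusted p = 0.0027), at 83.3, 79.1 and 80.7 TPM in rBMSCs and 262, 109 and 137 TPM in rEEOs. Kat2b, an acetyltransferase co-activator, and Tspan14, a partner of ADAM10, were called higher at log2 fold changes of 1.04 and 0.91, and Snw1, a spliceosome protein that also binds the Notch complex, at 0.38. The TPM ranges of the groups overlapped for Kat2b, Tspan14 and Snw1. Kat2b lost its call without rBMSCs replicate 2, Tspan14 without rBMSCs replicate 2 or 3, and Snw1 without any library except rEEOs replicate 1 or 2. By limma on log2 TPM with a pseudocount of 0.1 or 1 none of these 3 was called (lowest adjusted p 0.148), and with the length trend removed Tspan14 and Snw1 were not called (adjusted p = 0.0853 and 0.0535).

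Of 45 other Hedgehog pathway genes listed, 33 were held and 28 tested, with 15 called lower in rEEOs, 7 higher and 6 not called, beside the same 30.2% and 33.3% of all genes. Their median log2 fold change was -0.57, and 4 of the 28 had fewer than 10 counts in every library of 1 group. With library size alone, 10 were higher and 8 lower, and without any 1 of the 3 rBMSCs libraries 4 were higher. Among the lower genes was Foxf2, a forkhead factor that Hedgehog induces in mesenchyme, which stood at 1.35, 2.1 and 1.44 TPM in rBMSCs and 0 in every rEEOs library and was at least 12.3-fold lower (edgeR adjusted p = 0.000789). Its relatives Foxf1 and Foxl1 were also at 0 in rEEOs, and had at most 0.38 TPM in rBMSCs. Ccnd2, a D-type cyclin, stood at 58.1, 49.8 and 64.1 TPM in rBMSCs and 2.41, 0.14 and 0.14 TPM in rEEOs (log2 fold change -5.86, -8.13 without rEEOs replicate 1, edgeR adjusted p = 0.00109). Gpc6, a glypican of the cell surface, was at -5.30 on the log2 scale, Tulp3, which carries receptors into the primary cilium, at -4.24, and the survival gene Bcl2 at -3.71 (-5.24 without rEEOs replicate 1). Foxf2, Ccnd2, Gpc6, Tulp3 and Bcl2 were named for the size of their fold changes. All 5 were lower in every rEEOs library than in every rBMSCs library, where the TPM ranges did not overlap for 69.6% of all genes tested.

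The higher genes of the list were led by Lrp2, the endocytic receptor megalin that binds Hedgehog ligand, which stood at 0.05, 0.05 and 0.05 TPM in rBMSCs and 19.2, 14.2 and 48.3 TPM in rEEOs (log2 fold change 9.29 with an SE of 0.73, edgeR adjusted p = 9.69e-05, 8.47 without rEEOs replicate 3). Gpc3, a glypican known to compete with Patched for ligand, had 1, 0 and 0 counts in rBMSCs and 30, 279 and 262 counts in rEEOs. It was low in rEEOs replicate 1 and several times higher in replicates 2 and 3, and its ratio over rBMSCs was 569.7 with a 95% counting interval of 102 to 22540 (edgeR adjusted p = 0.0025). Ulk3 and Stk36, kinases that act on Gli factors, were higher at log2 fold changes of 1.43 and 1.19, and Mgrn1, a ubiquitin ligase, at 0.80. Stk36 lost its call without any 1 of the rBMSCs libraries, and Mgrn1 by limma with a pseudocount of 0.1 or 1 (0.48 and 0.47, adjusted p = 0.187 in both). Of the surface proteins of the pathway, Cdon and Gpc6 were thus lower in rEEOs and Lrp2 and Gpc3 higher.

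The uterine Ihh axis was read from 5 of 6 listed genes. Among these, Hand2 passed the filter on counts through rBMSCs only and Wnt4 through rEEOs only. Nr2f2, the nuclear receptor that relays epithelial Ihh in uterine stroma, stood at 45.5, 38.4 and 39.6 TPM in rBMSCs and 21.5, 15.2 and 14.3 TPM in rEEOs, and was 2.06-fold lower (log2 fold change -1.04 with an SE of 0.13, edgeR adjusted p = 0.000714). Hand2, a stromal factor induced by progesterone, stood at 7.9, 7.21 and 7.19 TPM in rBMSCs and 0 in every rEEOs library and was at least 7.44-fold lower (edgeR adjusted p = 0.000617). Both are known as stromal genes. Bmp2, a ligand of decidualization, was 3.04-fold lower (log2 fold change -1.60 with an SE of 0.31, edgeR adjusted p = 0.00467), at 9.23, 5.85 and 8.32 TPM in rBMSCs and 2.67, 1.81 and 1.00 TPM in rEEOs. Wnt4, which marks decidualizing stroma and also some epithelia, had no count in rBMSCs and stood at 2.62, 3.11 and 7.9 TPM in rEEOs, at least 17.9-fold higher (edgeR adjusted p = 0.00442). Without rEEOs replicate 3, the highest library, Wnt4 was at least 10.6-fold higher. Gata2, a progesterone receptor partner in the epithelium, stood at 7.6, 9.13 and 8.6 TPM in rBMSCs and 20.7, 12.6 and 13.1 TPM in rEEOs and was 2.16-fold higher (log2 fold change 1.11 with an SE of 0.16, edgeR adjusted p = 0.0011).

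Among members, the difference of rEEOs replicate 1 from replicates 2 and 3 tended to run with transcript length. Numb, Numbl, Jag1 and Jag2 were among the exceptions, and the cause was not tested. Among the 29 tested members, 20 had their highest rEEOs TPM in replicate 1 and 3 their lowest. On the log2(CPM + 1) scale, replicate 1 was compared with the mean of replicates 2 and 3. Of the 19 members with a transcript longer than that of the median gene, 15 were higher in replicate 1. Of the 10 that were not longer, 4 were. Among those 4, Hey1 and Hey2 had at most 2 counts in any rEEOs library, and Dlk2, among the 10, had 0. The same difference was taken over the tested genes above a minimum mean level in rEEOs, in 4 classes of 2157 genes by length. Its medians were -0.43, -0.12, 0.16 and 0.56 on the same scale from the shortest to the longest class. The log2 fold change between the cell types also ran with length. Over all genes tested, a larger set, its medians were 0.46, 0.20, -0.09 and -0.44 from the shortest to the longest of 4 classes. Notch2, Notch3, Jag1, Rbpj, Maml1 and Cdon have long transcripts and were lower in rEEOs, and Psenen and Hes1 have short ones and were higher. With the length trend removed, Notch2, Notch3, Jag1, Rbpj, Maml1, Cdon, Psenen and Hes1 were each still called in the same direction, at -2.50 (adjusted p = 9.73e-06), -3.01 (adjusted p = 0.000185), -1.71 (adjusted p = 0.00442), -1.998 (adjusted p = 0.000873), -1.48 (adjusted p = 4.31e-05), -4.89 (adjusted p = 8.61e-05), 0.60 (adjusted p = 0.00874) and 1.96 (adjusted p = 0.00527) respectively. Notch1 lost its call there, as given above. Jag2, whose transcript was 2.08 times as long as that of the median gene against 2.42 times for Jag1, went the other way.

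**Figure D4:**
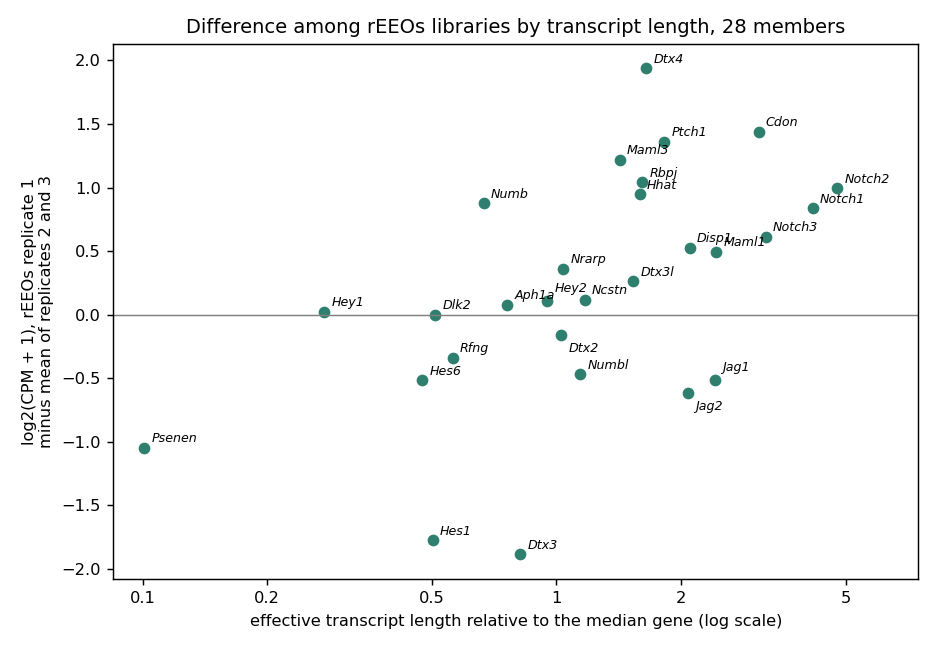
Difference between rEEOs replicate 1 and the mean of rEEOs replicates 2 and 3 on the log2(CPM + 1) scale, against effective transcript length relative to the median gene on a log axis, with 1 point for each of 28 tested members. Most long transcripts lay above 0, with Dtx4 and Cdon the highest, and Jag1 and Jag2 lay below 0 despite their length.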

How the data were processed

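The authors enriched mRNA with oligo(dT) beads, sequenced it as 150 bp single-end reads on the BGISEQ platform, trimmed the reads with TrimGalore, aligned them with Bowtie2 2.2.5 and estimated expression with RSEM. The submitters' processing notes name the build Rnor_6.0. The deposited table holds the authors' RSEM estimates: a TPM, an FPKM and an expected count per gene in every library. The copy used here ends within its last row and held 81.3% to 82.7% of the TPM total. The authors' group means were not used. RSEM counts that were not whole (7.31% to 8.43% of values) were rounded. Strand was not given in the sources used here.

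The members and gene lists were chosen with earlier results of these data known. Of the names searched, 19 were not analysed here: Dll4, Lfng, Psen2, Aph1b, Maml2, Hes3, Hes4, Hes5, Heyl, Dtx1, Shh, Disp2, Gas1, Boc, Hhip, Smo, Sufu, Gli2 and Gli3. The test was run in edgeR 4.0.16 on genes reaching 10 counts in 3 or more libraries (TMM scaling, quasi-likelihood test, Benjamini-Hochberg over all genes tested), with cell type as the only term. TPM levels carry no TMM scaling. Length trends were removed as an offset, a lowess on relative effective length with a span of 0.3. This fit was chosen after seeing the data. Alternatives used DESeq2 1.42.0 and limma 3.58.1, with a pseudocount of 1 or 0.1 TPM, other filters and scalings, and each library left out. Results for 2 members are not reported here and enter only the counts over members. Of the other lists, the 5 largest and 5 smallest called log2 fold changes were named, with the Ihh axis genes held. The floor for a count of 0 was 3 counts per library. Counting intervals (95%) cover counting error only. Library totals ranged from 10457958 to 15421501 counts.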

Additional observations from a re-analysis of the deposited data

How the results depend on the processing

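Of the 29 tested members, 17 kept their direction and their side of the threshold under every alternative run, as did 20 of the 25 other named genes (not Kat2b, Mgrn1, Snw1, Stk36 and Tspan14). Calls were lost for 5 members (Aph1a, Dtx2, Ncstn, Notch1 and Rfng) under at least 1 alternative and gained for 6 (among them Disp1, Dtx4, Hes6, Numb and Ptch1). The direction turned for 3 members, none of them called. Disp1 was at -0.0007 with the looser filter, -0.0127 with the replicate block, -0.175 to 0.129 on leaving out each library (below 0 without rBMSCs replicate 1 or rEEOs replicate 1) and, by limma, -0.208 and -0.179 with pseudocounts of 0.1 and 1. Dtx3 was at 0.231 with library size alone and -0.688 to 0.314 on leaving out each library (above 0 without rEEOs replicate 1). Hes6 was at -0.0271 with the length trend removed and -0.0007 and -0.0008 by limma with pseudocounts of 0.1 and 1.

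Notch members called higher numbered 5 by limma with either pseudocount and 4 past a log2 fold change of 2. Hedgehog members called higher numbered 2 with the length trend removed, and those called lower 1 past a log2 fold change of 2. Other Notch genes called higher numbered 3 with the length trend removed, 2 by limma with either pseudocount and 1 past a log2 fold change of 2, and those called lower 5 past that size. Other Hedgehog genes called higher numbered 2 past that size, and those called lower 8 with library size alone and 6 past that size. Leaving out each library in turn gave 6 to 9 Notch members higher and 10 to 15 lower, 0 Hedgehog members higher and 2 lower, 2 to 6 other Notch genes higher and 10 to 18 lower, and 4 to 10 other Hedgehog genes higher and 13 to 17 lower. Other Notch genes called higher fell to 2 without rBMSCs replicate 2 and 3 without rBMSCs replicate 3, and other Hedgehog genes called higher to 4 without rBMSCs replicate 1, 2 or 3.

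The replicate numbers are shared between the groups, and the sources used here do not say whether they pair libraries. Deviations of same-numbered libraries correlated at 0.142, 0.159 and -0.126. By these deviations, rBMSCs replicate 1 and rEEOs replicate 2 correlated best with their own number, and rBMSCs replicates 2 and 3 and rEEOs replicates 1 and 3 did not. With 3 libraries per group, these values cannot decide whether the libraries were paired. With the replicate number as a block, 7 Notch members were higher and 12 lower, 0 Hedgehog members higher and 2 lower, 4 other Notch genes higher and 14 lower, and 6 other Hedgehog genes higher and 14 lower. Among named genes the block ended the calls of Ncstn (0.49, adjusted p = 0.0575) and Snw1. The causes of these changes were not tested. The median of all genes was 0.08 in the fit reported, 0.46 with library size alone and -0.22 by limma on log2(TPM + 1). Of the 5 members below the filter on counts, DESeq2 and edgeR with a filter of 1 count in any library each called 1, Dlk1, lower. At this depth Dll1, Hes7 and Notch4 were called by neither (lowest adjusted p 0.0802, for Notch4).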
